A study of Mus musculus with 8 samples.

Results

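Clonotypes found both in the thymus and in the same mouse's spleen or tumor were described here. A clonotype is a pair of CDR3 amino acid sequences, 1 of the TCRα chain (TRA) and 1 of the TCRβ chain (TRB), and it was called shared when both sequences were identical in the thymus table and in the other table of that animal. By this rule 170 clonotypes were shared, of 55290 clonotypes in all when each is counted once per animal (0.307%). They held 2484 of 66914 counted cells, 503 in the thymus and 1981 in the spleen or tumor. Members were chosen by cell counts above 0 in both tables, so their numbers of cells are given as a description, with no test.

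The CD8+ T cells came from 7 mice. The thymus was profiled in all of them, beside the spleen in mouse-155A and mouse-155C and beside the tumor in mouse-164B, mouse-164C and the 3 mice named mouse-160A to mouse-160C. The study used Pdcd1fl/fl mice, in which the gene for the inhibitory receptor PD-1 carries loxP sites, and Pdcd1 cKO mice, in which the E8I CD8-Cre transgene deletes that gene in the CD8 lineage after positive selection, all on a C57BL/6 background. Mice had no tumor (thymus and spleen) or bore a B16-OVA or B16-F10 melanoma (thymus and tumor), of which B16-OVA makes ovalbumin. CD8+ cells of thymus and spleen were taken with an isolation kit, and those of tumors with microbeads after digestion. Genotype and tumor model of a single animal are not in the labels, so no group was formed and all comparisons are within the animal. Each tissue of an animal has 1 table, with no replicate.

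Each T cell builds its receptor in the thymus, by joining V, D and J segments for TRB and V and J segments for TRA, with bases trimmed and added at the joints. The joint lies in CDR3, the loop that touches the presented peptide. The same TRA and TRB pair in separate cells can mark descent from a common ancestor or, for easily made sequences, the same joining in unrelated cells. CD8+ T cells leave the thymus for blood, spleen and tissues, and some mature cells travel back, so a clonotype in both tables gives no direction of travel.

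The CDR3 nucleotide sequences below belong to shared clonotypes with many cells, to pairs linked by a second chain, and to the 1 clonotype whose bases differed between tissues. Clonotypes are named by the mouse and the V and J genes of both chains. Bases that the deposited annotation gave to neither V, D nor J are in capitals. Except where thymus or tumor is named, the sequence was the most frequent one of that clonotype in both tables.
mouse-160B, TRAV12-1_1 with TRAJ28: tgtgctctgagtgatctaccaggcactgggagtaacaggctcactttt
its partner, TRBV12-2 with TRBJ2-7: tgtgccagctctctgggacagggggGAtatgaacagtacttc
mouse-160B, TRAV12-1_1 with TRAJ12: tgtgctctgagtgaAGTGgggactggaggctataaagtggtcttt
its partner, TRBV14 with TRBJ1-1: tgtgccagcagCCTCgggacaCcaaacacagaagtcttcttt
mouse-164B, TRAV6-5_1 with TRAJ23: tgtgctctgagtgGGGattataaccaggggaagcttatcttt
its partner, TRBV12-1 with TRBJ2-5: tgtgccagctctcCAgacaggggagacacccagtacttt
mouse-164B, TRAV14-3 with TRAJ56: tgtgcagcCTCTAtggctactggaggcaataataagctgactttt
its partner, TRBV13-1_1 with TRBJ2-1: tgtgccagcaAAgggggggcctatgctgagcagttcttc
mouse-164C, TRAV12-1_1 with TRAJ56: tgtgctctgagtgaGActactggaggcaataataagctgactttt
its partner, TRBV12-1 with TRBJ1-2: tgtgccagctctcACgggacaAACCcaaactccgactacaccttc
mouse-160B, TRAV8-1 with TRAJ12: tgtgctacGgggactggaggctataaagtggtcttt
mouse-160B, TRAV10 with TRAJ23: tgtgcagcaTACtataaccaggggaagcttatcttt
partner of both of these, TRBV14 with TRBJ2-7: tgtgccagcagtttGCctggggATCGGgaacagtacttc
mouse-164B, TRAV8D-2_1 with TRAJ42: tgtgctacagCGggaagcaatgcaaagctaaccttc
its partner, TRBV14 with TRBJ1-2: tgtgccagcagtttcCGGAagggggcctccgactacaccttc
its other partner, TRBV29 with TRBJ2-7: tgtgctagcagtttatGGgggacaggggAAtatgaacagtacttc
mouse-164C thymus, TRAV3-1 with TRAJ12: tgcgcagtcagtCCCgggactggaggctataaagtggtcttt
mouse-164C tumor, TRAV3-1 with TRAJ12: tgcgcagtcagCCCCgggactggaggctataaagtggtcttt
mouse-164C thymus partner, TRBV3 with TRBJ2-7: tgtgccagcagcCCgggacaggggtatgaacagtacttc
mouse-164C tumor partner, TRBV3 with TRBJ2-7: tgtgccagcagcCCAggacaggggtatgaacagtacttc

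These CDR3 sequences run from the end of a V gene segment to the start of a J gene segment. The TRB genes lie on chromosome 6 of GRCm39, with Trbv12-2 at chr6:41095785-41096298, Trbv14 at chr6:41112079-41112550 and Trbj2-7 at chr6:41520744-41520790. The TRA genes lie on chromosome 14, with Trav12-1 at chr14:53775648-53776195 and Traj28 at chr14:54429118-54429182. All of these are on the plus strand.

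Shared clonotypes were few in every animal and their number differed between animals. There were 70 from mouse-164B, 48 from mouse-160B, 18 from mouse-160A, 15 from mouse-155C, 11 from mouse-164C, 6 from mouse-160C and 2 from mouse-155A. As a share of thymus clonotypes this was 1.23% for mouse-155C, 0.943% for mouse-164B, 0.873% for mouse-160B, 0.848% for mouse-160A, 0.182% for mouse-164C, 0.142% for mouse-160C and 0.0961% for mouse-155A. As a share of spleen or tumor clonotypes it ran from 0.0606% for mouse-155A to 3.79% for mouse-160A. A thymus table held 1241 to 7575 paired cells and a spleen or tumor table held 1382 to 13283. The order of the mice by shared clonotypes was not their order by depth, with 11 for mouse-164C (6059 thymus and 13283 tumor cells) and 18 for mouse-160A (2175 and 1812). Mouse-164B, however, had both the deepest thymus table (7575 cells) and the most shared clonotypes. A relation to depth was not tested. Where at least 2 transcripts were required of both chains, 32 shared clonotypes were left of mouse-164B, 20 of mouse-160B, 6 of mouse-160A, 3 of mouse-155C and 1 of each of the other 3 mice.

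Each thymus table was also set against the spleen or tumor tables of the 6 different animals. The 42 such pairs held 0 to 9 common clonotypes, with a median of 2 and a sum of 115, against a median of 15 in the 7 pairs from one animal. For 6 of 7 thymus tables, the own pair held more common clonotypes than any of the 6 different pairs. The exception was mouse-155A, whose thymus shared 2 clonotypes with its own spleen and up to 9 with a table of a different animal. From the other side, the spleen of mouse-155A shared 2 clonotypes with its own thymus, while 5 of 6 different thymus tables were at or above that, up to 3. The tumor of mouse-160C shared 6 clonotypes with its own thymus and 9 with that of 1 different animal. In these cases the count of the same animal was thus not the highest.

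Cells of shared clonotypes made up a small part of the thymus tables and a varying part of the others. Their share of thymus cells was 3.84% for mouse-160B, 2.44% for mouse-164B, 2.34% for mouse-155C, 2.16% for mouse-160A, 0.198% for mouse-164C, 0.165% for mouse-160C and 0.0959% for mouse-155A. The exact (Clopper–Pearson) 95% binomial interval was 3.36 to 4.37% for mouse-160B and 0.0116 to 0.346% for mouse-155A, and all such intervals cover counting error only. In the spleen or tumor the share was 13.02% for mouse-164B, 5.75% for mouse-164C, 4.25% for mouse-160B, 3.09% for mouse-160A, 2.03% for mouse-155C, 0.240% for mouse-160C and 0.0903% for mouse-155A. The value of mouse-164B stood highest, and in mouse-164C 1 clonotype alone supplied 741 of the 764 cells.

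Most shared clonotypes rested on single cells. In 53 of the 170 both tables held exactly 1 cell, and in 118 at least 1 table held 1 cell. At least 2 cells in both tables were seen for 52 clonotypes, and at least 5 in both for 17, of which 10 came from mouse-164B, 5 from mouse-160B and 2 from mouse-160A. All 17 were recorded in several sublibraries, the pools into which barcoded cells were split before library preparation, with at least 4 for the thymus and 3 for the tumor, and in at least 2 first-round wells of each tissue. Just inside the rule stood the 53 clonotypes with 1 cell in each table, and just outside it those with cells in 1 table and none in the other.

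**Figure D1:**
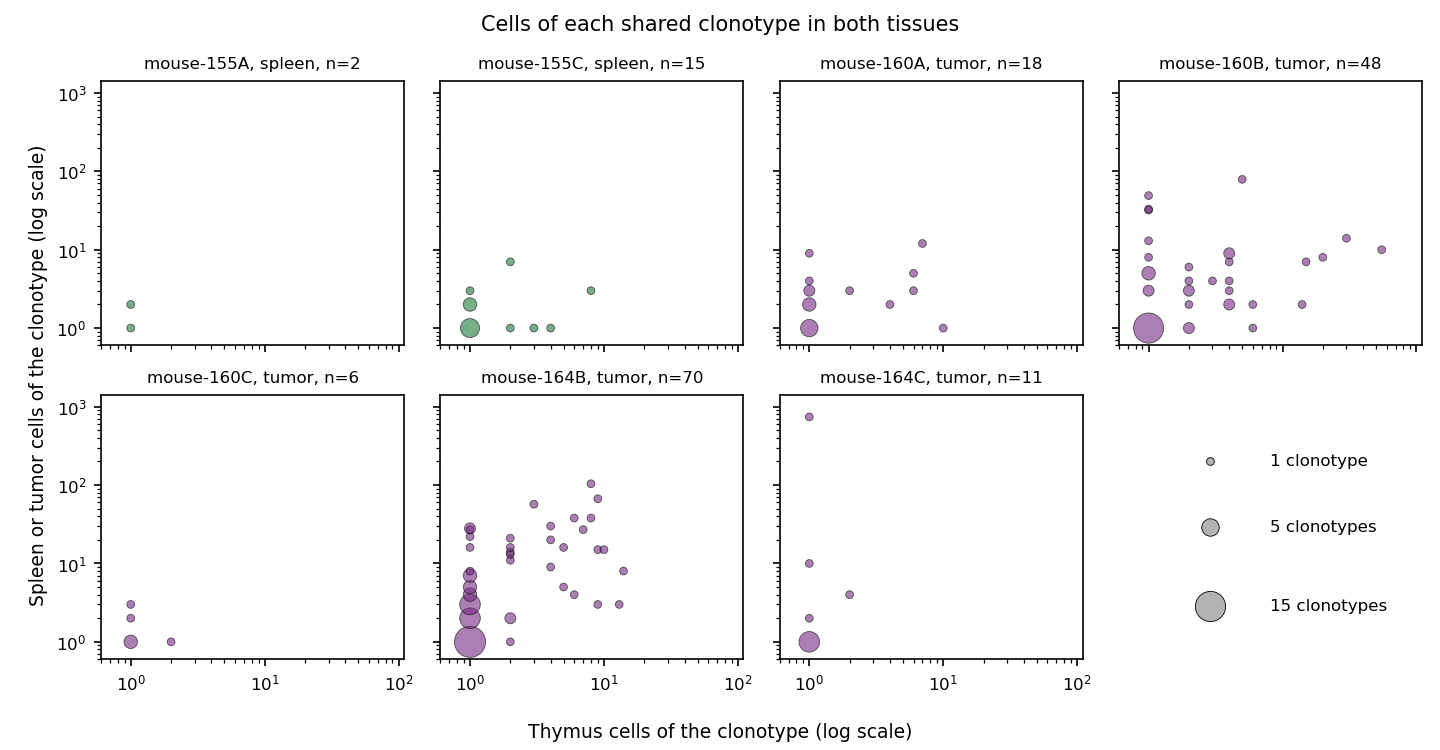
Cells of each shared clonotype in the thymus (x axis, log scale) and in the spleen or tumor (y axis, log scale), 1 panel per animal, with point area giving the number of clonotypes at a position. Clonotypes with 5 or more cells in both tissues appear in mouse-160A, mouse-160B and mouse-164B, and 1 clonotype of mouse-164C has 1 thymus cell and 741 tumor cells.

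The largest shared clonotypes did not hold the same place in both tissues. In mouse-160B the clonotype of TRAV12-1_1–TRAJ28 and TRBV12-2–TRBJ2-7 had 55 thymus cells (0.956%, rank 1) and 10 tumor cells (0.120%, rank 31). Its frequency was 7.96 times as high in the thymus, and the printed bases were found in 51 of its 52 annotated thymus cells and 10 of 10 tumor cells. The clonotype of TRAV12-1_1–TRAJ12 and TRBV14–TRBJ1-1 of the same mouse had 30 thymus cells (0.521%) and 14 tumor cells (0.168%), a ratio of 3.10. Both were thus leading thymus clones with a smaller place in the tumor.

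In the same mouse, the clonotype of TRAV7-4–TRAJ27 and TRBV2–TRBJ2-1 stood the other way round, with 5 thymus cells (0.0869%) and 79 tumor cells (0.948%, rank 2). Among the 5 clonotypes of mouse-160B with 5 or more cells in both tissues, it was the 1 with the higher frequency in the tumor. The other two, TRAV8-1–TRAJ12 with TRBV14–TRBJ2-7 and TRAV9D-3–TRAJ9 with TRBV17–TRBJ2-2, had 20 and 15 thymus cells and 8 and 7 tumor cells.

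Mouse-164B showed mostly the order in which the tumor was higher. The clonotype of TRAV6-5_1–TRAJ23 and TRBV12-1–TRBJ2-5 had 8 thymus cells (0.106%) and 104 tumor cells (1.77%, rank 4), with the printed bases in 4 of 4 annotated thymus and 103 of 104 tumor cells. The clonotype of TRAV14-3–TRAJ56 and TRBV13-1_1–TRBJ2-1 had 9 thymus cells (0.119%) and 67 tumor cells (1.14%, rank 5). The rank 1 thymus clonotype of this mouse, TRAV7D-3–TRAJ24 with TRBV12-2–TRBJ2-1, had 14 thymus cells (0.185%) and 8 tumor cells (0.136%). It alone was more frequent in the thymus among the 10 of this mouse with 5 or more cells in both. The other 7 had 5 to 10 thymus cells and 5 to 38 tumor cells.

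In mouse-160A the clonotypes of this size were TRAV3-1–TRAJ4 with TRBV21_1–TRBJ2-3, with 7 thymus and 12 tumor cells, and TRAV12-2–TRAJ58 with TRBV3–TRBJ1-4, with 6 and 5. A thymus clonotype tied at rank 1 in that mouse, TRAV12-2–TRAJ58 with TRBV14–TRBJ2-1, had 10 thymus cells and 1 tumor cell. The tie was with an unshared clonotype, TRAV12-1_1–TRAJ6 with TRBV29, also of 10 thymus cells. In mouse-155C a thymus clonotype tied at rank 1, TRAV7-3–TRAJ17 with TRBV17–TRBJ2-7, had 8 thymus cells (0.645%) and 3 spleen cells (0.217%). There too an unshared clonotype, TRAV21-DV12–TRAJ52 with TRBV3, had 8 thymus cells. The rank 1 spleen clonotype of mouse-155C, TRAV3-1–TRAJ28 with TRBV3–TRBJ2-5, had 2 thymus and 7 spleen cells. Its TRA CDR3 does not end in the F or W that closes this loop. That CDR3 also occurred as a second chain in 852 cells outside mouse-160B. No shared clonotype of the other 3 mice had over 2 thymus cells. The leading ones there had 1 thymus and 2 spleen cells in mouse-155A, 1 thymus and 3 tumor cells in mouse-160C, and 2 thymus and 4 tumor cells in mouse-164C.

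The widest gap between tissues was that of TRAV12-1_1–TRAJ56 with TRBV12-1–TRBJ1-2 of mouse-164C, with 1 thymus cell (0.0165%) and 741 tumor cells (5.58%, rank 2). In mouse-160B, TRAV14D-1_1–TRAJ30 with TRBV12-1–TRBJ2-3 had 1 thymus cell and 49 tumor cells, and TRAV5-4–TRAJ48_1 with TRBV12-2–TRBJ2-5 had 1 and 33. A single thymus cell carries little weight by itself. For each of these 3 its bases were the same as in the tumor, and its second-round and third-round barcode and sublibrary did not occur together in a tumor cell of that clonotype.

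Over the 170 shared clonotypes, the frequency was higher in the spleen or tumor for 111 and in the thymus for 59. The thymus had the higher frequency for 30 of 48 from mouse-160B, 10 of 15 from mouse-155C, 9 of 11 from mouse-164C, 5 of 70 from mouse-164B, 3 of 18 from mouse-160A, 1 of 6 from mouse-160C and 1 of 2 from mouse-155A. For clonotypes of 1 cell in each table, this order is set by the depth of the tables.

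Taken over all mice, sharing went with clone size in the thymus, and mouse-160B and mouse-164B supplied most of the larger shared clonotypes. Detection in both tables, on which the rule rests, itself depends on clone size, so this is a description and not a separate result. Of 28454 thymus clonotypes with 1 cell, 109 were shared (0.383%, exact 95% interval 0.315 to 0.462). Of 84 with 2 cells, 20 were shared (23.8%, 15.2 to 34.3). The share was 38.5% (15 of 39) at 3 to 4 cells, 63.0% (17 of 27) at 5 to 9 cells and 90.0% (9 of 10) at 10 or more cells. Of clonotypes with 2 or more cells, the shared ones were 25 of 45 from mouse-164B, 5 of 10 from mouse-155C, 6 of 15 from mouse-160A, 23 of 63 from mouse-160B, 1 of 8 from mouse-160C, 1 of 16 from mouse-164C and 0 of 3 from mouse-155A, so the mice differed. At 10 or more cells they were 5 of 5 from mouse-160B, 3 of 3 from mouse-164B and 1 of 2 from mouse-160A.

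Matches with different animals were also more frequent at 2 or more cells, though lower in the sum of all mice. Of thymus clonotypes with 1 cell, 79 were found in at least 1 of the 6 different second tables (0.278%), against the 109 in their own. In 4 mice the count for 1-cell clonotypes was no higher in the own table than in the 6 different ones together, with 2 against 14 for mouse-155A, 5 against 10 for mouse-160C, 10 against 12 for mouse-164C and 10 against 11 for mouse-155C. At 2 cells 4 of 84 were found in a different animal (4.76%) and at 3 to 4 cells 2 of 39 (5.13%). Of the 8 clonotypes of mouse-160C with 2 or more cells, 2 were found in a different animal and 1 in its own tumor. Of the 37 thymus clonotypes with 5 or more cells, 26 were shared (70.3%, exact 95% interval 53.0 to 84.1) and 0 were found in the second table of a different animal. A count of 0 of 37 allows a share of up to 8.11% by the rule of 3 counts used for counts of 0 (3 of 37), and the upper end of its exact 95% interval is 9.49%.

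Seen from the spleen and tumor, sharing rose less with size. Of 25767 clonotypes with 1 cell 62 were shared (0.241%), and of 166 with 10 or more cells 31 were (18.7%, exact 95% interval 13.1 to 25.4). At that size the mice differed, with 21 of 44 shared from mouse-164B, 7 of 33 from mouse-160B, 2 of 33 from mouse-164C, 1 of 17 from mouse-160A and 0 of 38 from mouse-160C. Of the same 166, 22 were found in the thymus of a different animal (13.3%). At 5 or more cells it was 26 of 310 (8.39%), against 0 of 37 thymus clonotypes, whose exact 95% interval reaches 9.49%. At 10 or more cells it was 0 of 10 for the thymus. A difference between the tissues in such matches is thus not shown.

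**Figure D2:**
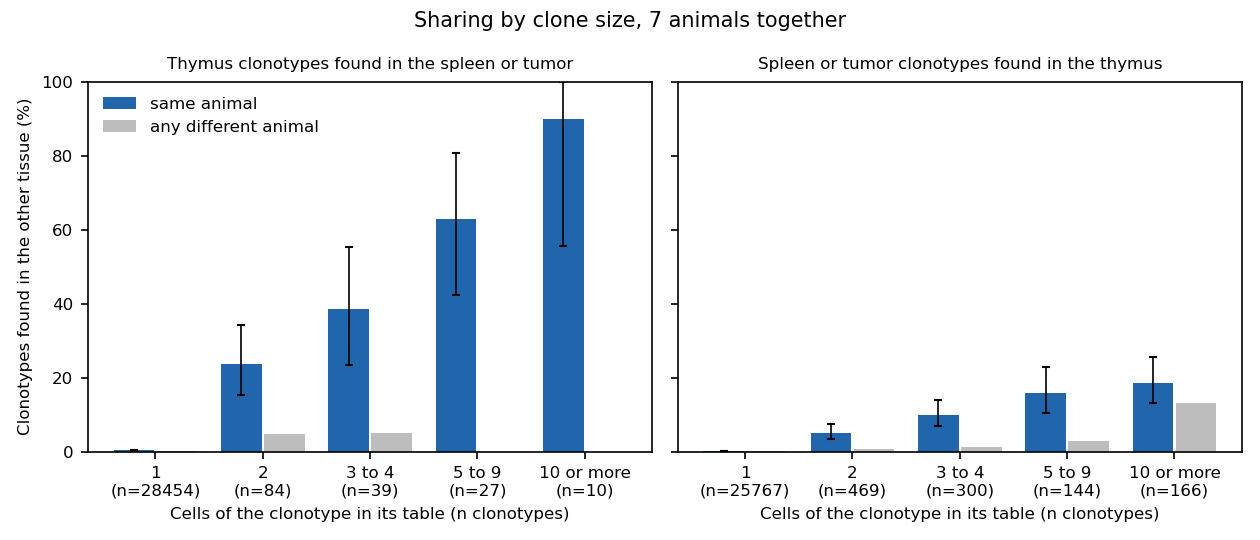
Share of clonotypes found in the other tissue (y axis, %), by the number of cells of the clonotype in its own table (x axis, with the number of clonotypes). Blue bars are the same animal with exact 95% binomial intervals, grey bars any of the 6 different animals, and the blue bars of thymus clonotypes run from 0.383% at 1 cell to 90.0% at 10 or more cells. Detection in both tables itself depends on clone size.

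Of the 37 thymus clonotypes with 5 or more cells, 11 were not shared. In 4 of these the TRA chain joined TRAV11 with TRAJ18, the invariant chain of mouse NKT cells, a lineage that recognises lipids. They were 1 of mouse-160A with 7 cells, 1 of mouse-160C with 7 cells, and a pair of mouse-164B with 9 and 5 cells, and all but that of mouse-160A paired the chain with TRBV13-2. The largest of the other 7 was TRAV12-1_1–TRAJ6 with TRBV29 of mouse-160A, with 10 thymus cells. Of the same 7, TRAV3-3_1–TRAJ28 with TRBV3 of mouse-160B had 5 cells and a TRA CDR3 that does not end in F or W. Its TRB CDR3 is that of a shared clonotype of this mouse, TRAV6-7-DV9–TRAJ22 with TRBV3–TRBJ1-2. Whether both are the same clone was not tested. None of the 11 was found among the barcodes of the second tissue marked as multiplets.

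NKT-like chains were seldom shared. Of 2353 thymus clonotypes with TRAV11 and TRAJ18, 1 was shared (0.0425%, exact 95% interval 0.00108 to 0.237), against 169 of 26261 other thymus clonotypes (0.644%, 0.550 to 0.748). The 1 was a clonotype of mouse-155C with TRBV13-2 and 1 cell in each table. The chain made up 11.2% of the unshared thymus clonotypes for mouse-160B, 9.69% for mouse-160A, 9.24% for mouse-155C, 8.56% for mouse-155A, 8.55% for mouse-160C, 7.61% for mouse-164C and 5.79% for mouse-164B. Among shared clonotypes it made up 6.67% for mouse-155C and 0 in the other 6 mice.

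The TRAV11–TRAJ18 share was lower in shared than in unshared thymus clonotypes in 7 of 7 animals, with a mean difference of -7.72 percentage points (range -11.2 to -2.58). The exact two-sided sign-flip permutation test over the animals gave p = 0.0156, the smallest it can give, and p = 0.297 after Benjamini–Hochberg adjustment over the 19 tests run. With 2 shared clonotypes in mouse-155A, 6 in mouse-160C and 11 in mouse-164C, a share of 0 could easily arise. The direction in these mice thus carries little weight. The spleen and tumor tables held 58 such clonotypes in all, so few could be shared. Against unshared spleen or tumor clonotypes the mean difference was 0.66 points, higher in 1 animal and lower in 5 (exact permutation p = 1, adjusted p = 1). The chain of MAIT cells, TRAV1 with TRAJ33, was in 0 of the 170 shared clonotypes. By the rule of 3 counts this allows a share of up to 1.76% (upper end of the exact 95% interval 2.15%). Among all counted cells, shared or not, 1 was MAIT-like, so this 0 is not particular to the shared clonotypes.

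Thymus and second tissue had the same bases for nearly all shared clonotypes. Nucleotide sequences were held in both tables for 130 of the 170, and 129 of these had at least 1 identical pair of TRA and TRB CDR3 sequences in both (99.2%, exact 95% interval 95.8 to 99.98). A single pair covered all annotated cells in 123. The share was 83.3% for mouse-164C, where 5 of 6 had an identical pair, and 100% in the other 6 mice. The remaining clonotype, TRAV3-1–TRAJ12 with TRBV3–TRBJ2-7, had 1 cell in each table, and its sequences printed above give the same amino acids through different bases in both chains.

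Identical bases were also the rule between different animals. Of 98 matches between a thymus table and a different animal's second table, with bases held for both, 91 had an identical pair (92.9%, 85.8 to 97.1). These too were counted once in each pair of tables, so a clonotype can repeat and the interval takes repeats as independent. Matches whose cells agree in all barcode parts but the first, 34 of 115 between animals and described next, were not left out. The share of identical pairs without them was not computed, so the 92.9% and the test below are not a background free of such cells. The share was 4.05 percentage points higher within than between animals on average, higher in 4 and lower in 1 of the 7 animals. The exact sign-flip permutation test gave p = 0.438, and p = 0.554 after adjustment. The share within the animal was at 100% in 6 of 7 animals and 83.3 to 100% between animals, so the measure had little room to differ, and the p does not show that both kinds of clonotype are alike.

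Barcodes did differ between them. A cell barcode joins a first-round well, which marks the sample, with a second-round well, a third-round well and a sublibrary. Of the 253531 barcodes 0 occurred in more than 1 table, and 0 of the 48 first-round wells served more than 1 table. Where a thymus cell and a second-tissue cell of a clonotype agree in all parts but the first, they differ in the sample mark alone. This was seen for 1 of 170 shared clonotypes (0.588%, exact 95% interval 0.0149 to 3.23), TRAV2_1–TRAJ23 with TRBV12-2–TRBJ2-7 of mouse-160B, with 1 cell in each table. Among the 115 matches in the 42 pairs of different animals it was seen for 34 (29.6%, 21.4 to 38.8). A clonotype was counted once in each pair of tables, so matches can repeat and the interval takes them as independent. Of counted thymus cells, the share whose parts occurred in any cell of the second table was much alike in both kinds of pair. It was 1.77 to 18.5% in pairs from one animal and 1.78 to 20.1% in pairs of different animals. This share counts cells and does not require the same clonotype, so it is not a background rate for the 0.588% and 29.6%. Without clonotypes of agreeing barcodes, 81 common clonotypes were left in the 42 different pairs, with 0 to 7 a pair.

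Some shared clonotypes were also present in another animal. This held for 13 of the 170, and for 6 of them a single table of another animal held more cells than both of their own tables. The same count was not made for unshared clonotypes, so it is not shown whether such presence is particular to the shared ones. The clonotype of TRAV12-1_1–TRAJ45 and TRBV13-1_1–TRBJ2-7 had 4 thymus cells and 1 spleen cell in mouse-155C, 1 thymus and 1 tumor cell in mouse-160B, and 368 cells outside mouse-155C. The clonotype of TRAV3-3_1–TRAJ33 and TRBV13-1_1–TRBJ2-7 had 2 thymus cells and 1 spleen cell in mouse-155C and 652 cells in other animals. In mouse-160B, TRAV8N-2–TRAJ31 with TRBV15–TRBJ2-7 had 1 cell in each table and 70 in other animals. How these came to be in several animals was not tested. The 17 clonotypes with 5 or more cells in both tissues had at most 1 cell in other animals.

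Second chains, which the rule did not use, were often the same in both tissues. A T cell can carry a second TRA because both alleles may join, a second TRB is less usual, and doublets of cells also yield second chains. Among shared clonotypes, 25 had at least 1 cell with a second TRA in both tables, and in 14 of them it was the same CDR3 (56.0%, exact 95% interval 34.9 to 75.6). For a second TRB these were 7 of 26 (26.9%, 11.6 to 47.8). In 9 of the 14 and 6 of the 7, the second chain was not close to the first, where close means within 2 edits or the same first 6 residues. Of the matches between different animals, 0 of 2 with a second TRA in both tables and 0 of 4 with a second TRB had the same one, too few to set a background. Of the 9, 1 was a second TRA that also occurred as a second chain in 852 cells of other animals, and a pair were clonotypes of mouse-160B with each other's TRA, described next.

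The clearest case of a repeated second TRA was in mouse-160B. The clonotype of TRAV8-1–TRAJ12 and TRBV14–TRBJ2-7 carried a second TRA with the CDR3 of the TRAV10–TRAJ23 chain in 13 of 20 thymus cells and 7 of 8 tumor cells. The clonotype of TRAV10–TRAJ23 with the same TRB carried a second TRA with the CDR3 of the TRAV8-1–TRAJ12 chain in 4 of 4 thymus and 2 of 2 tumor cells. They hold the same 3 chains with first and second exchanged, and were counted as separate shared clonotypes.

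The clearest case of a repeated second TRB was in mouse-164B. The clonotype of TRAV8D-2_1–TRAJ42 and TRBV14–TRBJ1-2, with 7 thymus and 27 tumor cells, carried a second TRB with the CDR3 of the TRBV29–TRBJ2-7 chain in 7 of 7 and 24 of 27 of them. The same TRA with that TRBV29 chain first was itself shared, with 1 thymus and 28 tumor cells. In TRAV12-2–TRAJ12 with TRBV15–TRBJ1-1 of mouse-164B, a second TRB was repeated in 1 of 2 thymus and 15 of 16 tumor cells. In all, 12 shared clonotypes had the TRB of another shared clonotype of their mouse, so the 170 are not all separate clones. A further limit is that 6 of the 170 had a TRA CDR3 that does not end in the F or W that closes this loop.

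Second chains as such were less frequent on average in cells of shared clonotypes, with no adjusted p under 0.05. In the thymus, the share of cells with a second TRA was lower in shared than in unshared clonotypes in 6 of 7 animals, at 15.5% against 20.3% for mouse-164B, 11.03% against 19.9% for mouse-160B, 1.48% against 18.9% for mouse-160A and 0 against 14.5% for mouse-155C. It was higher in mouse-164C, at 27.3% against 21.5%. The mean difference over 7 animals was -8.54 percentage points (exact permutation p = 0.0625, adjusted p = 0.346), and it turned to 2.57 points where unshared clonotypes of 1 cell were left out. In the spleen or tumor it was -5.58 points, lower in 6 of 7 (exact permutation p = 0.0781, adjusted p = 0.346).

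For a second TRB the mean difference was -7.25 points in the thymus, lower in 5 of 7 animals (exact permutation p = 0.0781, adjusted p = 0.346), and -6.86 points in the spleen or tumor, also lower in 5 of 7 (exact permutation p = 0.141, adjusted p = 0.382). Transcripts per cell, on which detection of a second chain depends, were lower in thymus cells of shared clonotypes in 6 of 7 animals, with a mean difference of -0.32 on the log2 scale (exact permutation p = 0.109, adjusted p = 0.346). In the spleen or tumor they were higher in 4 of 7, by 0.12 on average (exact permutation p = 0.375, adjusted p = 0.554). The part of transcript depth in the second-chain values was not tested.

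The TRB CDR3 was longer on average in shared than in unshared thymus clonotypes of the 3 mice with most shared clonotypes, and not of the others. The mean TRB CDR3 length of shared clonotypes was 14.7 ± 0.225 residues in mouse-164B (SEM, n = 70 clonotypes) against 13.9 in unshared thymus clonotypes. It was 14.5 ± 0.174 (n = 48 clonotypes) against 13.95 for mouse-160B and 14.4 ± 0.414 (n = 18 clonotypes) against 13.9 for mouse-160A. In mouse-155C it was shorter, 13.5 ± 0.424 (n = 15 clonotypes) against 13.9, and in the other 3 mice it lay within 0.122 residues of the unshared mean. Over the 7 animals the mean difference was 0.153 residues (longer in 3, shorter in 4, exact permutation p = 0.438, adjusted p = 0.554). Against the spleen or tumor it was 0.225 (exact permutation p = 0.234, adjusted p = 0.554). Both turned negative, to -0.166 and -0.0922, where at least 2 transcripts were required of both chains.

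TRA length was lower by 0.0804 residues against the thymus and higher by 0.0994 against the spleen or tumor, with adjusted p = 0.973 and 0.779 in the exact permutation test. Bases of the TRB joint that belong to neither V, D nor J numbered 5.19 ± 0.537 in shared clonotypes of mouse-164B against 4.19 in its unshared thymus clonotypes, and 4.16 ± 0.372 against 4.21 for mouse-160B. Their mean difference over animals was 0.168 bases against the thymus and 0.192 against the second tissue, with adjusted p = 0.554 for both in the exact permutation test. For these bases the annotation covered 2983 of 7353 unshared thymus clonotypes of mouse-164B and 5036 of 5453 of mouse-160B. In the tumor of mouse-164C it covered 3210 of 10454 unshared clonotypes.

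Hydropathy of the central TRB CDR3 residues, on the Kyte–Doolittle scale on which higher values are more hydrophobic, was higher in shared than in unshared thymus clonotypes in 6 of 7 animals. It was -0.757 against -1.17 for mouse-164B and -0.824 against -1.18 for mouse-160B, and in mouse-155C it was lower, -1.33 against -1.12. The mean difference was 0.185 against the thymus (exact permutation p = 0.109, adjusted p = 0.346) and 0.106 against the spleen or tumor (exact permutation p = 0.297, adjusted p = 0.554). They turned to -0.128 and -0.206 with at least 2 transcripts in both chains. Of the 19 tests, 1 had an unadjusted p under 0.05 and 0 an adjusted one. With 7 animals a test alone at the smallest p adjusts to 0.297, so several would have to be at that p to pass, and a p above the threshold does not show that shared and unshared clonotypes are alike.

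**Figure D3:**
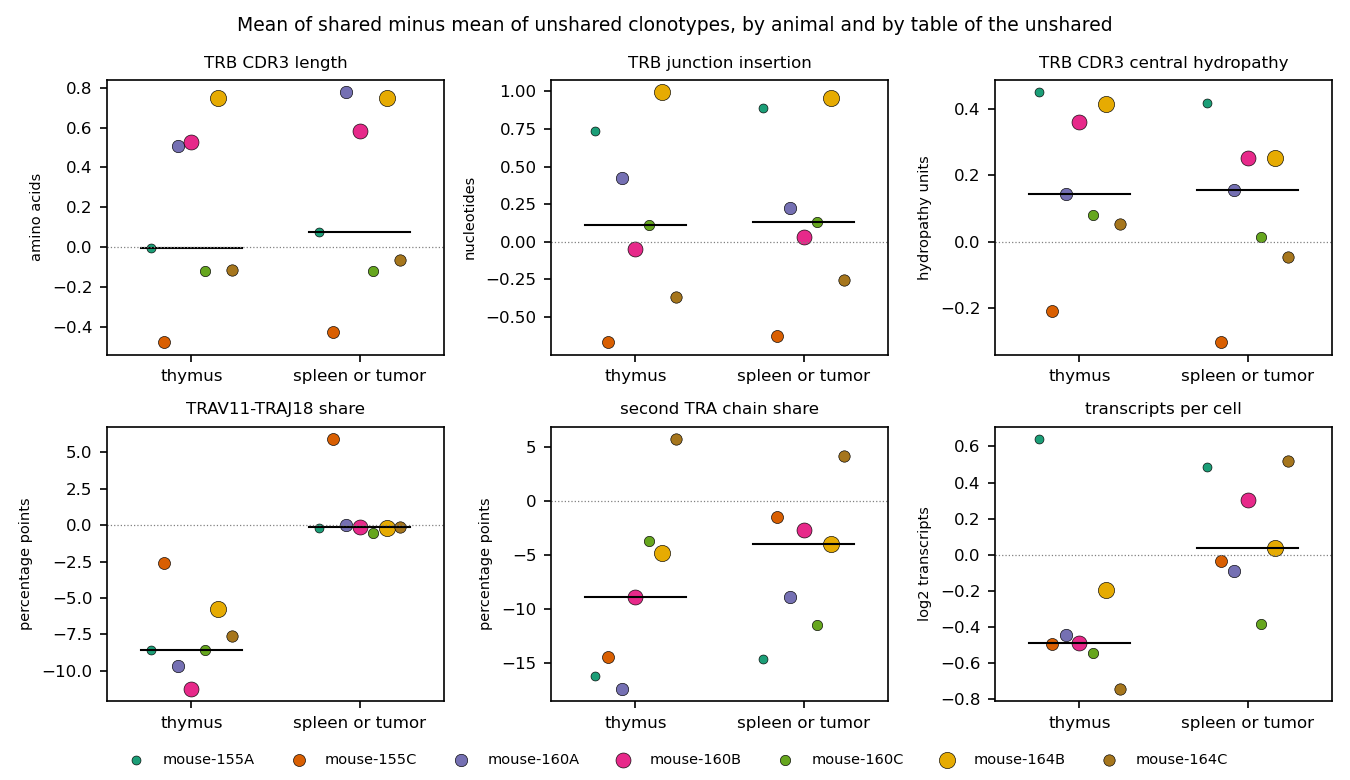
Mean of shared minus mean of unshared clonotypes (y axis, units by panel) for 6 features, with 1 point per animal and the unshared clonotypes of the thymus or of the spleen or tumor on the x axis. Point size grows with the number of shared clonotypes and bars are medians over 7 animals, and the TRAV11–TRAJ18 share lies below 0 in all 7 animals against the thymus, while each other panel has animals on both sides of 0.

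V gene use of the shared clonotypes leaned to TRBV29 (Trbv29 at chr6:41248328-41248815, plus strand). TRBV29 was used by 31 of the 170 (18.2%), while its median over animals was 6.94% of unshared thymus and 7.21% of unshared spleen or tumor clonotypes. It was used by 15 of 70 from mouse-164B, 7 of 48 from mouse-160B, 5 of 18 from mouse-160A, 2 of 2 from mouse-155A, 1 of 11 from mouse-164C, 1 of 15 from mouse-155C and 0 of 6 from mouse-160C. The share was above both unshared shares in 5 animals and below both in mouse-155C and mouse-160C. The 31 held 47 thymus and 250 spleen or tumor cells, and 1 of them, TRAV12-1_1–TRAJ26 with TRBV29–TRBJ2-5 of mouse-164B, had 5 or more cells in both tissues, with 6 and 38.

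The other TRBV genes with the highest mean share over animals were TRBV3 (14 of 170, 8.24%), TRBV13-1_1 (11, 6.47%) and TRBV13-3 (10, 5.88%), with unshared medians of 6.30 to 8.03%. TRBV14, chosen after its values were seen because 4 of the 17 clonotypes with 5 or more cells in both tissues use it, was in 18 of 170 (10.6%) against unshared medians of 4.41% and 5.08%. It occurred in 11 clonotypes of mouse-164B, 5 of mouse-160B and 2 of mouse-160A, and in 0 of the 34 of the other 4 mice. Some of the 18 have the TRB of another of the 18 in the same mouse, so they are not all separate clones. Such repeats of a TRB also occurred with TRBV29, TRBV13-1_1 and TRBV13-2. TRBV13-2, also chosen afterwards because mouse NKT cells often pair it with their invariant chain, was in 12 of 170 (7.06%) against a median of 12.8% of unshared thymus clonotypes. Those unshared thymus clonotypes include the ones with TRAV11 and TRAJ18, 5.79 to 11.2% by mouse. The thymus median alone thus does not show that TRBV13-2 is rare among shared clonotypes.

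Among TRBJ genes, TRBJ2-7 led with 39 clonotypes (22.9%, unshared medians 18.6% and 19.9%), before TRBJ2-1 with 28 (16.5%, medians 11.5% and 12.8%) and TRBJ1-1 with 18 (10.6%, medians 12.5% and 11.4%). The share of all TRBJ2 genes was 93.3% for mouse-155C, 77.8% for mouse-160A, 72.9% for mouse-160B and 71.4% for mouse-164B, where unshared thymus clonotypes had 61.6 to 63.3%. It was 63.6% for mouse-164C and 50% in both mouse-155A and mouse-160C. The mean difference was 5.85 percentage points, higher in 5 of 7 animals (exact permutation p = 0.406, adjusted p = 0.554). Against unshared spleen or tumor clonotypes it was 2.32 points, higher in 4 and lower in 3 (exact permutation p = 0.703, adjusted p = 0.786).

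For TRA, TRAV12-1_1 was the most used gene, in 25 of 170 (14.7%) against unshared medians of 7.93% in the thymus and 9.42% in the spleen or tumor. It was in 11 of 70 from mouse-164B, 8 of 48 from mouse-160B, 3 of 15 from mouse-155C and 3 of 11 from mouse-164C, and in 0 of the 26 of the other 3 mice. The clonotype with 55 thymus cells and that with 741 tumor cells both used it. Some of the 25 have the TRB of another of the 25 in the same mouse, so these too are not all separate clones. TRAV6-6 was in 14 (8.24%, medians 4.22% and 4.34%), TRAV3-1 in 11 (6.47%, medians 6.08% and 6.33%) and TRAV19 in 3 (1.76%), 1 of them among the 2 clonotypes of mouse-155A. The TRAJ genes of highest mean share were TRAJ28 (9 clonotypes), TRAJ49_1 (7) and TRAJ33 (3), each under 6% of the 170. For TRAJ49_1, TRAJ33 and TRAV19 that mean is set by mouse-155A, where 1 of 2 clonotypes is 50%. Over the 170, TRAJ12, TRAJ30 and TRAJ9 were the most used with 11 each (6.47%), named here after their values were seen. Names with _1 stand as deposited, and near-identical copies of mouse TRAV genes make the copy uncertain. Counts per gene were too few for a test.

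**Figure D4:**
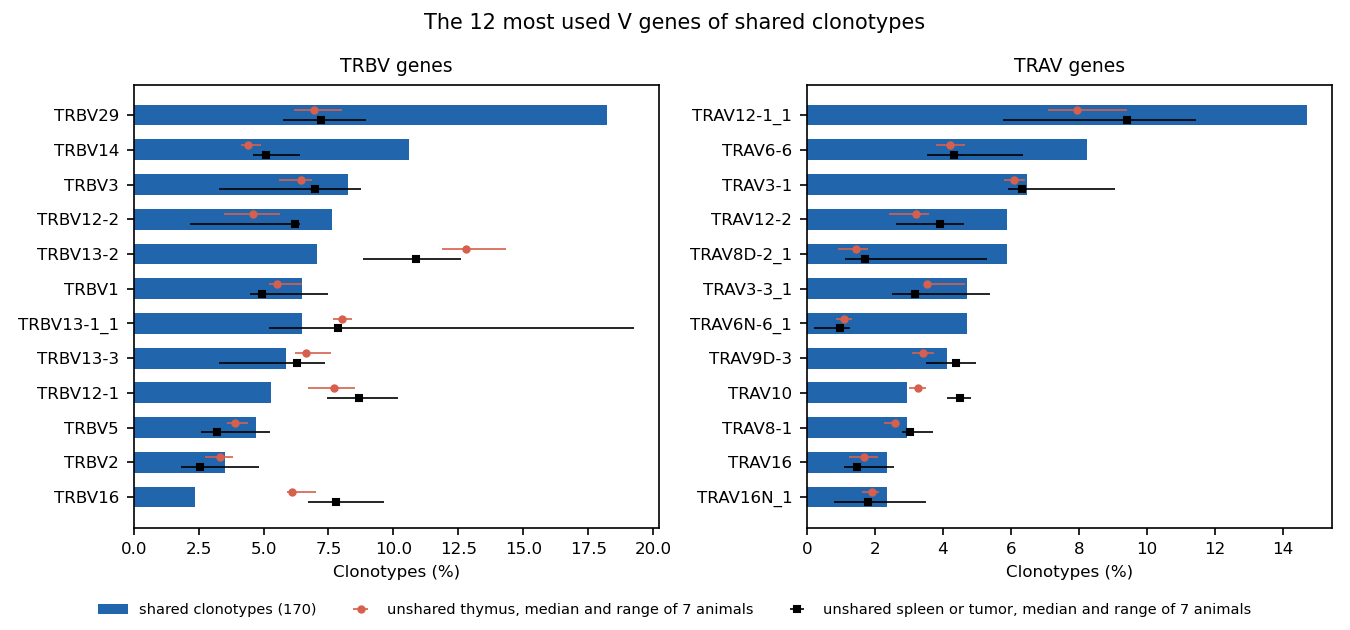
Share of clonotypes (x axis, %) for the 12 TRBV and 12 TRAV genes most used by the 170 shared clonotypes (bars, all animals together), with the unshared clonotypes of the thymus and of the spleen or tumor as medians with the range of 7 animals. TRBV29 at 18.2% and TRAV12-1_1 at 14.7% lie beyond the range of both unshared sets.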

How the data were processed

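The 8 samples in the labels are multiplexed sublibraries of a Parse Evercode TCR experiment on CD8+ T cells and were left without a group. Animal and tissue of the 14 tables come from the names they were deposited under. Chains were assembled and clonotypes called by the authors in the TCR pipeline of Parse Biosciences (build GRCm39, version not given in the sources used here). Barcode tables, as deposited, hold transcript counts per chain and a multiplet mark. Clonotype tables, as deposited, hold counts of cells and the same as a fraction of counted cells. All 55460 clonotype rows equalled the tally of barcodes with both chains and no multiplet mark, so multiplets were left out as the authors marked them. The annotation with nucleotide sequences was held in part for mouse-160B thymus, mouse-164B thymus and mouse-164C tumor.

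Shared and unshared clonotypes were compared within each animal, each clonotype counted once, by an exact two-sided sign-flip permutation test over 7 animals with Benjamini–Hochberg adjustment over 19 tests. The tests were checked on simulated repertoires. Central hydropathy leaves out 4 residues at each end. Gene positions are from GENCODE on GRCm39. Named clonotypes were those with 5 or more cells in each tissue (otherwise the leading one of the animal), those among the 10 most frequent of a table and those with differing bases, and of these the ones that show a result are printed. Clonotypes named for a second chain, for presence in other animals or for agreeing barcodes were chosen after their values were seen. Named genes were the 4 TRBV, 3 TRBJ, 4 TRAV and 3 TRAJ genes of highest mean share. Members, lists and tests were chosen with earlier results of these data known. Alternatives covered the clonotype definition, transcript depth, second chains, clonotypes of other animals, NKT-like chains, barcode agreement, clone size, mice with few shared clonotypes, and leaving out each animal and each sublibrary. Python 3.11.15, pandas 2.3.3, numpy 2.4.6 and scipy 1.17.1 were used.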

Additional observations from a re-analysis of the deposited data

Results flagged for a closer look

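Barcodes marked as multiplets were not counted in the clonotype tables. In mouse-160B, 9 clonotypes counted in 1 tissue were found in the other tissue only among such barcodes, 6 thymus clonotypes in the tumor and 3 tumor clonotypes in the thymus. The other 6 animals had 0 or 1 each, and the 42 pairs of different animals had 0 to 3 with a median of 0. This stood out because the multiplets lie outside the counted data and the value is above that of all different-animal pairs, and what these barcodes hold was not tested.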

How the results depend on the processing

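In 25 alternative settings, 466 tests were rerun. The direction was kept in 438 and turned in 28, and 0 had an adjusted p under 0.05 (lowest 0.0938). The TRAV11–TRAJ18 share stayed lower in shared than in unshared thymus clonotypes in every setting in which it was computed. Counts of shared clonotypes moved with the filter on transcripts per cell. With at least 2 transcripts in both chains there were 1 for mouse-155A, 3 for mouse-155C, 6 for mouse-160A, 20 for mouse-160B, 1 for mouse-160C, 32 for mouse-164B and 1 for mouse-164C. With clonotypes defined by nucleotide pairs there were 40 for mouse-164B and 5 for mouse-164C, whose annotation was partial, and 7 were left in mouse-164C without cells holding more than 1 chain of a kind. Leaving out each sublibrary gave 1 to 2 for mouse-155A, 3 to 6 for mouse-160C (3 without sublibrary 3), 6 to 11 for mouse-164C (6 without sublibrary 2, 7 without sublibrary 4 or 7), 10 to 15 for mouse-155C, 14 to 17 for mouse-160A, 39 to 45 for mouse-160B and 57 to 65 for mouse-164B. In mouse-155A the 1 was seen without sublibrary 1, 2 or 7.

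With at least 2 transcripts, the difference in TRB length turned to -0.166 against the thymus and -0.0922 against the second tissue, that in hydropathy to -0.128 and -0.206, that in transcripts to 0.0243 and -0.204, and that in TRAV11–TRAJ18 share against the second tissue to -0.267 points. TRA length against the thymus turned to 0.0449 without cells of more than 1 chain of a kind, 0.0534 without clonotypes of another animal, 0.0233 without TRAV11–TRAJ18 and 0.109 without mice of under 10 shared clonotypes, and against the second tissue to -0.0147 with nucleotide pairs. Against unshared clonotypes of at least 2 cells, second TRA turned to 2.57 points and transcripts to 0.0187 in the thymus and -0.376 in the second tissue.

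Leaving out 1 sublibrary, TRA length ran from -0.264 to 0.134 against the thymus and -0.0770 to 0.322 against the second tissue, hydropathy from -0.0734 to 0.269 against the second tissue, the TRBJ2 share from -2.73 to 12.2 and from -6.18 to 8.66 points, and the TRAV11–TRAJ18 share from -0.302 to 1.15 points against the second tissue. Leaving out 1 animal, TRA length ran from -0.160 to 0.132 against the thymus, and TRBJ2 share from -2.15 to 5.29 and TRAV11–TRAJ18 share from -0.211 to 0.865 points against the second tissue. The cause was not tested. Most shared clonotypes rest on 1 cell in a table, which limits all values of single mice, and 3 mice had under 12 of them.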
